A study of Mus musculus with 9 samples.

Results

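Embryos carrying 1 targeted copy of Dll3 were compared with wild-type embryos, using the 2 arrays titled as Dll3 heterozygous and the 2 titled as wild type, 4 of the 9 arrays of a mouse study. Whole embryos were collected at 9.5 days post coitum, and their biotin-labelled RNA was hybridised to Affymetrix arrays. The wild-type group was +/+, the Dll3 heterozygotes (Dll3 het) were Dll3neo/+, and the Dll3 homozygotes (Dll3 null, 2 arrays) were Dll3neo/neo. The remaining arrays were 1 heterozygous for a targeted Notch1 allele (Notch1 het, Notch1tm1Con/+) and 2 homozygous for it (Notch1 null, Notch1tm1Con/tm1Con). The labels name a strain for 1 Notch1 null array only, C57BL/6J, so a shared strain background of the groups compared is not given. Nor do they say whether an array held a single embryo, a pool or a litter mate, so the p-values reflect the spread among these few arrays alone, part of which may be technical. The comparison asks what the loss of 1 functional copy of Dll3 does to transcript levels in the embryo.

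Notch signalling passes between neighbouring cells: a ligand of the Delta or Jagged family on one cell binds a Notch receptor on the next, the receptor is cleaved, and its intracellular part joins the DNA-binding protein RBPJ to switch on repressor genes of the Hes and Hey families. Dll3 is a divergent member of the Delta family that does not activate Notch on neighbouring cells and acts inside the cell that makes it. In the mouse embryo it is expressed in the presomitic mesoderm, where Notch activity oscillates as somites form, and in differentiating neurons. Embryos without functional Dll3 have irregular somites and, later, malformed vertebrae.

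Each deposited value is a ratio to a number of the probe set's own, and at 19847 of 22690 probe sets a value of 1 is the median over the 9 arrays. At 2824 the median lies clearly below 1, among them probe sets of Hey2 and Dner, and there 1 is not the usual level. Levels can be compared between arrays for 1 probe set, not between genes, and no value says whether a transcript was detected. Because whole embryos were used, fewer cells of a type and less RNA per cell cannot be told apart.

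The arrays of both groups differed in more than genotype. The spike-in control dap, an added bacterial transcript that follows the preparation, had ratios of 6.61 and 9.20 in wild type and 0.376 and 0.403 in Dll3 het, a 20.0-fold gap. Controls thr, phe and lys were 5.21-, 2.38- and 1.98-fold higher in wild type with no overlap, while cre, bioB, bioC and bioD overlapped between the groups. In Dll3 null the dap ratios were 0.360 and 0.377, against 1.00 in Notch1 het and 5.26 and 2.62 in Notch1 null, so the 4 Dll3 arrays lay below all 5 others. In each comparison of Dll3 het with wild type or with Notch1 het, preparation and genotype therefore cannot be told apart. Dll3 null and Dll3 het did not have such a gap in dap. However, cre, bioB, bioC and bioD were each higher on both Dll3 het arrays than on both Dll3 null arrays. For bioB the ratios were 1.64 and 1.18 in Dll3 het against 0.827 and 1.02 in Dll3 null. Preparation and genotype cannot be told apart in that comparison either. The ratio of 3' to 5' probe sets, a sign of RNA quality, differed between Dll3 het and wild type by -0.06 on the log2 scale for Gapdh and -0.15 for beta-actin. Levels of Xist and Eif2s3y gave a male pattern on both wild-type arrays, a female pattern on Dll3 het replicate 1 and a male pattern on Dll3 het replicate 2. Over all probe sets the log2 ratios correlated at 0.765 between the wild-type arrays and at 0.673 between the Dll3 het arrays, which share the array design and the divisors. Dll3 het replicate 1 correlated at 0.743 with Dll3 null replicate 2.

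Of 22626 probe sets tested with limma, 110 differed between Dll3 het and wild type at an adjusted p under 0.05, or 0.486%. Of these, 42 were higher in Dll3 het (0.186%) and 68 were lower (0.301%). The changed probe sets that were higher differed by 1.51- to 4.04-fold, with a median of 1.79 (the highest, at a probe set that carries several gene symbols, is not named), and those that were lower by 1.49- to 5.18-fold, with a median of 1.78. At least a 2-fold difference was seen for 30 of them, 12 higher and 18 lower. The median log2 difference over all probe sets was -0.01. At an unadjusted p under 0.05 there were 3623 probe sets (16.0%), where 1131 would fall by chance. None of the 110 had an adjusted p under 0.0265. The adjustment gave many of them the same value, while their unadjusted limma p-values lay further apart, such as 4.05e-06 at Npepps and 0.000235 at Hes5.

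The count rested on each of the 4 arrays. It was 0 without wild-type replicate 2, without Dll3 het replicate 1 or without Dll3 het replicate 2, and 1 without wild-type replicate 1, a probe set outside the 110; 2866, 3680, 2848 and 2811 probe sets, in that order, then had an unadjusted limma p under 0.05. With embryo sex as a covariate and sex-linked genes left out it was also 0, with 3438 at an unadjusted limma p under 0.05. In Dll3 het, Dll3 null and Notch1 null, replicate 1 had the female pattern and replicate 2 the male one. Sex and replicate number therefore cannot be told apart in that fit. All 110 kept their direction in every one of these fits. Because the arrays of both groups did not overlap at any of the 110, leaving out 1 of the 4 could not reverse a direction. The genes named below as changed passed when all 9 arrays were used, and this limit applies to each of them.

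**Figure D1:**
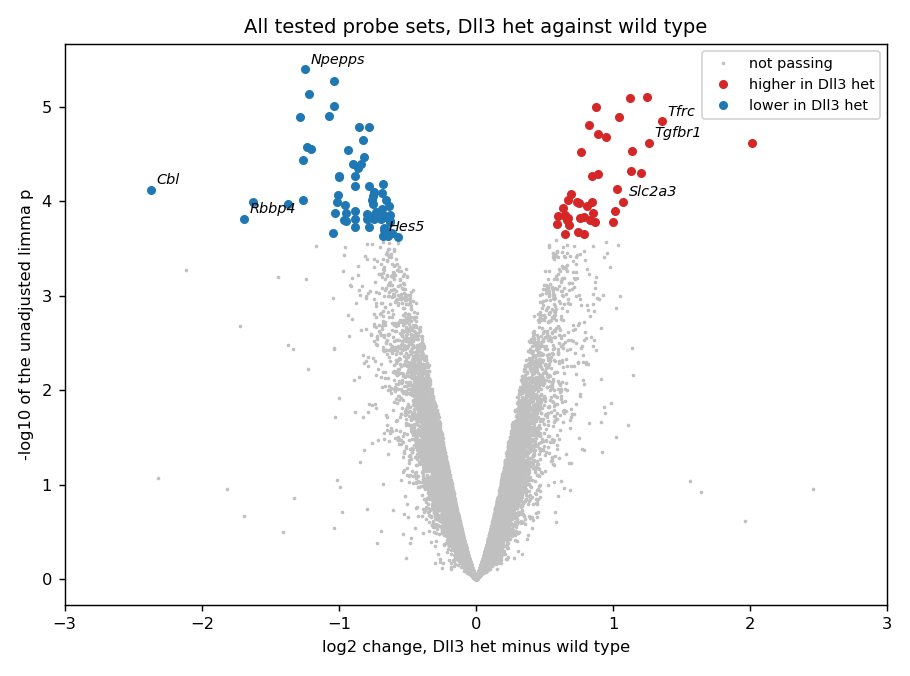
The log2 difference between Dll3 het and wild type is plotted on the x axis against -log10 of the unadjusted limma p on the y axis, with 1 point per probe set. The 42 probe sets that were higher (red) and the 68 that were lower (blue) form the top of both arms, and Cbl lies furthest to the left.

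Dll3 itself did not pass the test. Its probe set had ratios of 1.09 and 1.00 in wild type, 1.06 and 0.987 in Dll3 het, and 0.804 and 0.933 in Dll3 null. The Dll3 het arrays overlapped the wild-type arrays, with a log2 difference of -0.03 ± 0.12 (SE, n = 2 arrays a group) and a 95% interval from -0.30 to 0.24. The sources used here do not give where this probe set lies relative to the targeted part of the gene, and its level therefore does not check the labels.

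None of the other ligands passed in limma either, at any probe set; averaged over probe sets, 2 of the 8 ligand and ligand-like genes had an unadjusted p under 0.05 (Dlk1 and Dll4). Dll1, the main activating ligand of the presomitic mesoderm, had ratios of 0.954 and 0.948 in wild type and 1.00 and 1.19 in Dll3 het, a log2 difference of 0.19 ± 0.12 with an interval from -0.08 to 0.47. Dll4, the ligand of arterial endothelium, gave 0.34 and 0.13 at its 2 probe sets. Jag1 gave 0.07 and -0.02, and Jag2 gave -0.30 and -0.25. Dlk1, a ligand-like protein without the usual Notch-binding domain, had the widest gap of this group, with ratios of 1.15 and 1.13 in wild type and 0.817 and 0.801 in Dll3 het (log2 -0.49 ± 0.18, limma adjusted p = 0.228). Its arrays did not overlap, as was so for 47.2% of all probe sets. The ligand-like genes Dlk2 and Dner lay between -0.08 and 0.25.

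All 4 receptor genes were also without a call, and averaged over probe sets 0 had an unadjusted p under 0.05. Notch1 gave log2 differences of -0.05 (interval -0.36 to 0.25) and -0.37 (-0.88 to 0.15) at its 2 probe sets. Notch2 gave -0.05 and 0.33, with limma adjusted p-values of 0.892 and 0.183. Notch3 gave -0.01 and -0.05 and Notch4 gave -0.16 and -0.17. The interval of the second Notch2 probe set, 0.09 to 0.57, left out 0, yet this probe set was not called. With 2 arrays a group, differences of the receptors within their intervals remain possible. The threshold could also have missed a difference as large as the ends of an interval.

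Adam10, which encodes a protease that cleaves Notch at the cell surface after ligand binding, had a probe set that rose. Its ratios were 0.714 and 0.715 in wild type and 1.15 and 1.28 in Dll3 het, against 1.11 and 1.15 in Dll3 null and 0.991 in Notch1 het (log2 0.77 ± 0.10 for Dll3 het against wild type, limma adjusted p = 0.0283). The wild-type pair was low and all 4 Dll3 arrays were high at this probe set. Averaged over its 3 probe sets Adam10 gave 0.43 ± 0.11, with a limma adjusted p of 0.115. Lfng, the fringe glycosyltransferase that modifies Notch in the segmentation clock, gave 0.11 and 0.41, and its second probe set had ratios of 0.859 and 1.00 in wild type against 1.17 and 1.30 in Dll3 het (adjusted p = 0.199).

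Among genes that Notch switches on, Hes5, a repressor that keeps neural progenitors from differentiating, had 1 of 2 probe sets that fell. That probe set had ratios of 1.52 and 1.47 in wild type, 0.873 and 1.00 in Dll3 het, 1.12 and 1.05 in Dll3 null, 0.772 in Notch1 het, and 0.493 and 0.428 in Notch1 null. Wild type was highest, Notch1 null was lowest, and both Dll3 genotypes lay between them. The fall in Dll3 het was 1.60-fold (log2 -0.68 ± 0.12, limma adjusted p = 0.0491). At the second Hes5 probe set the ratios were 1.09 and 1.25 in wild type and 0.979 and 1.03 in Dll3 het, with an adjusted p of 0.422. Id4, an inhibitor of basic helix-loop-helix factors that stands in the list of Notch targets, also fell at 1 of its 3 probe sets. Its ratios there were 2.12 and 1.71 in wild type, 1.00 and 0.907 in Dll3 het, 1.02 and 1.02 in Dll3 null and 0.736 in Notch1 het, a 2.00-fold difference between Dll3 het and wild type (log2 -0.999 ± 0.144, limma adjusted p = 0.0350). Wild type was high and the other 7 arrays were low.

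The promoters of these 2 genes are shown because RBPJ binds short sites near the start of Notch target genes. Both sequences are from RefSeq (GRCm38.p6), run from 250 bases upstream of the start site to 30 bases past it on the + strand, and have the RBPJ core TGGGAA, or its reverse complement TTCCCA, in capitals. Hes5 lies at chr4:154960673-154960952 and holds 2 matches, beginning at -226 and -82 from the start site. Id4 lies at chr13:48260866-48261145 and holds 1 match, at -245. On both strands, 23.8% of 32851 promoter windows of 280 bases hold at least 1 such match, and a match describes the letters, not a bound site.
Hes5: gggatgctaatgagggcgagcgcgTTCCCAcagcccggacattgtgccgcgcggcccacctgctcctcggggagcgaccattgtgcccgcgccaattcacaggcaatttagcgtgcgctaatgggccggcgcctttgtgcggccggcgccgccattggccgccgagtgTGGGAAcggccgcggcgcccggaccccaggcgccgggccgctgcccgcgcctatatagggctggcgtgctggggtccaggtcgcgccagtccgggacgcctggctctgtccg
Id4: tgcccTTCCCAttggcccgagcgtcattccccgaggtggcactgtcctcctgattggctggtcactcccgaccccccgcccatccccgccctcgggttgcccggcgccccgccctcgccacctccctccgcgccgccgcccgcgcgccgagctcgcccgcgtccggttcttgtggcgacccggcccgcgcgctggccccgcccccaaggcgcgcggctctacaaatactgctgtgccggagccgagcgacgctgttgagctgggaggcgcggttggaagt

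The remaining target and segmentation genes did not pass. Hes1 gave -0.12 (interval -0.41 to 0.16), Hes7, the repressor at the core of the segmentation clock, gave 0.08 (-0.19 to 0.35), Hey1 gave -0.17 and Hey2 gave -0.16. Heyl gave between -0.18 and 0.17 at its 3 probe sets. Nrarp, a feedback inhibitor of Notch, gave -0.61 at 1 probe set, with ratios of 1.65 and 1.41 in wild type against 1.00 and 1.00 in Dll3 het (adjusted p = 0.197), and 0.08 at the other. Mesp2, which sets the boundary of the next somite, gave -0.31 (-0.61 to 0.00). Tbx6, a factor of presomitic identity, gave 0.03 ± 0.19. Uncx, expressed in the posterior side of somites, had ratios of 1.38 and 1.32 in wild type, 1.00 and 1.03 in Dll3 het and 0.816 and 0.760 in Dll3 null (log2 for Dll3 het -0.41 ± 0.12, adjusted p = 0.145).

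**Figure D2:**
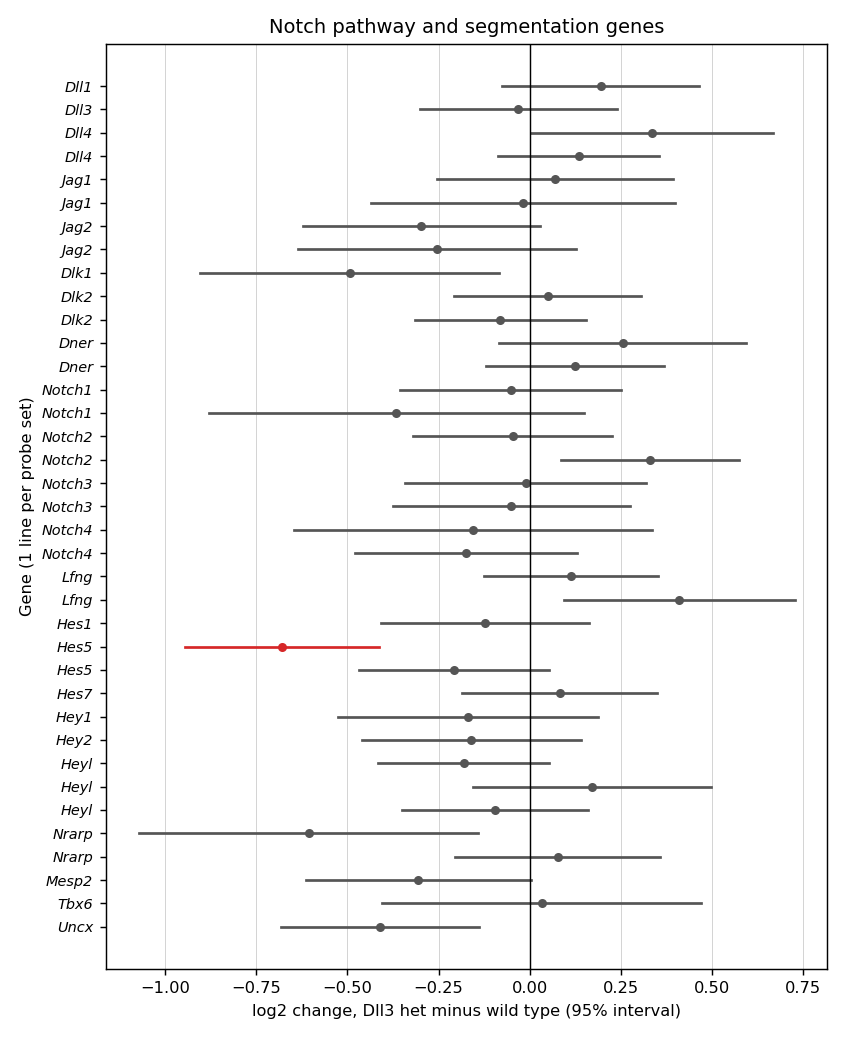
Points give the log2 difference between Dll3 het and wild type for each probe set of the Notch pathway and segmentation genes, and bars the 95% interval of the limma fit. A single probe set, of Hes5, is drawn in red as past the threshold, and the interval of Dll3 spans -0.30 to 0.24.

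Of the probe sets with 1 gene symbol, the highest difference was at Tfrc, the transferrin receptor that brings iron into cells. Its ratios were 0.644 and 0.496 in wild type, 1.49 and 1.41 in Dll3 het, 1.00 and 1.22 in Dll3 null and 0.797 in Notch1 het, 2.56-fold higher in Dll3 het than in wild type (log2 1.36 ± 0.17, limma adjusted p = 0.0265). Dll3 het stood above all 7 other arrays at this probe set. A second Tfrc probe set rose 2.37-fold, from 0.813 and 0.728 to 2.02 and 1.64, with the single Notch1 het array at 0.610. The last Tfrc probe set had ratios of 0.863 and 0.920 in wild type and 1.20 and 1.19 in Dll3 het (log2 0.43 ± 0.12, adjusted p = 0.119). Tfrc is also known as a gene switched on by low oxygen through the HIF factors, and red cell precursors are rich in it.

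Tfrc is the gene with the highest named rise, and its promoter (RefSeq GRCm38.p6, chr16:32608646-32608925, + strand, 1 of 2 start sites in the table) is shown with the core of the hypoxia response element, ACGTG or its reverse complement CACGT, in capitals. There is 1 match, beginning at -2 from the start site. Of all 32851 windows of this length, 18.5% hold 1 or more.
Tfrc: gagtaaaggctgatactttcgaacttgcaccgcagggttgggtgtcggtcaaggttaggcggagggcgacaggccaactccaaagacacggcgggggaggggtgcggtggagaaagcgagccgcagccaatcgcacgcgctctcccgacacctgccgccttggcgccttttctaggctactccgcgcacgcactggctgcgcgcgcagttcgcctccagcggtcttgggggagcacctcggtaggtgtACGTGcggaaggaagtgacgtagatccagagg

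Slc2a3 also rose at 2 of its 4 probe sets, and Kansl1 at 2 of 2. Slc2a3, the glucose transporter of neurons, had ratios of 0.534 and 0.461 in wild type and 1.11 and 0.987 in Dll3 het, against 1.00 and 1.41 in Dll3 null and 2.24 and 1.96 in Notch1 null (2.11-fold for Dll3 het, log2 1.08 ± 0.17). Wild type was lowest and Notch1 null highest at this probe set. The uncalled Slc2a3 probe sets gave log2 0.13 and 0.21 (limma adjusted p = 0.644 and 0.390). Kansl1, a subunit of the NSL histone acetyltransferase complex, had both of its probe sets called, at log2 0.85 ± 0.13 and 0.85 ± 0.12. At the first of these the ratios were 0.579 and 0.620 in wild type and 1.16 and 1.00 in Dll3 het, with Dll3 null at 0.972 and 1.02 and Notch1 het at 1.12. Wild type was thus low against every other array there.

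Tgfbr1, the type I receptor for TGF beta, rose 2.40-fold at 1 probe set, from 0.633 and 0.529 to 1.49 and 1.29 (log2 1.26 ± 0.16, limma adjusted p = 0.0283). Its other probe sets disagreed in direction, at 0.66 and -0.45, and neither passed. Top2b, a DNA topoisomerase of post-mitotic cells, rose at 2 probe sets, by log2 1.14 ± 0.15 (0.784 and 0.588 in wild type, 1.40 and 1.59 in Dll3 het) and by 0.64 ± 0.10, while the remaining one gave -0.08. At the first of these the Notch1 het array was at 0.650, within the range of wild type. Gja1, the gap junction protein connexin 43, rose at 1 of 6 probe sets, from 0.844 and 0.724 to 1.71 and 1.45, and the other 5 lay between -0.48 and 0.09 on the log2 scale.

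The other genes among the 15 highest were Supt20 (log2 1.13), a subunit of the SAGA coactivator, Prkci (1.04), an atypical protein kinase C of cell polarity, the linker histone gene H1f2 (1.00), Hmmr (0.94), a hyaluronan receptor that also binds the mitotic spindle, the nuclear import receptor Tnpo1 (0.89), Hs6st2 (0.89), which sulfates heparan sulfate, the splicing regulator Rbm5 (0.88), the zinc finger gene Zfp445 (0.86) and the condensin subunit Smc4 (0.85). Wild type was below both Dll3 het arrays in each of them, as the choice of these probe sets required. For Smc4, 1 uncalled probe set gave -0.93, with ratios of 2.00 and 1.91 in wild type and 1.04 and 1.02 in Dll3 het (limma adjusted p = 0.101). The other uncalled one gave 0.34, in the direction of the called one, so the Smc4 probe sets disagreed. Uncalled probe sets of Supt20 gave 0.06 and -0.14, that of Prkci -0.01 and that of Tnpo1 -0.02. Those of H1f2, Hmmr, Hs6st2, Rbm5 and Zfp445 lay in the direction of the called one, for H1f2 at 0.01 and 0.02. Ctnnb1, which encodes beta-catenin, rose by log2 0.76 ± 0.13 at 1 of 3 probe sets, from 0.889 and 0.756 to 1.49 and 1.29. It is named for its role, after its value was seen, as are Adam10, Ccnd2, Tubb2b, Vim, Ebf1, Fstl1 and Hoxb5.

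**Figure D3:**
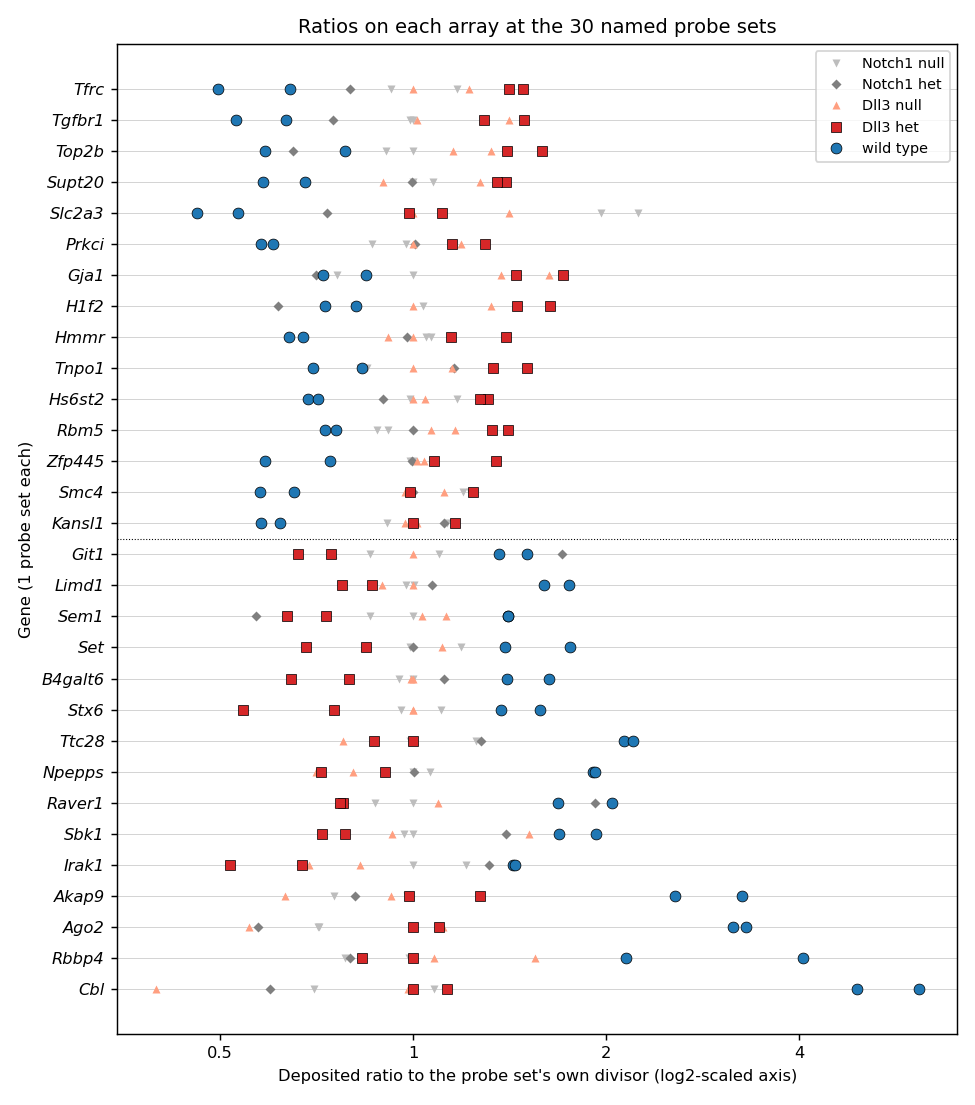
Each line is 1 probe set of the 15 genes with the highest (above the dotted line) and the 15 with the lowest difference, and each symbol the deposited ratio on 1 array, on a log2-scaled axis. Wild type (blue circles) is separated from Dll3 het (red squares) on every line, as the choice of these probe sets required. The gap is widest at Cbl, with 4.93 and 6.15 against 1.13 and 1.00.

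Among genes that fell, the largest difference was at Cbl, a ubiquitin ligase that sends activated receptor tyrosine kinases to degradation. Its ratios were 4.93 and 6.15 in wild type, 1.13 and 1.00 in Dll3 het, 0.397 and 0.983 in Dll3 null, 0.598 in Notch1 het and 1.08 and 0.702 in Notch1 null. The wild-type pair stood alone and the other 7 arrays lay together near or below 1. The fall in Dll3 het was 5.18-fold (log2 -2.37 ± 0.36, limma adjusted p = 0.0403). The second Cbl probe set went from 1.57 and 2.05 to 1.24 and 1.00 (log2 -0.69 ± 0.19, adjusted p = 0.125).

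Ago2, the Argonaute protein that cleaves RNA targets, fell 3.08-fold, from 3.31 and 3.15 in wild type to 1.10 and 1.00 in Dll3 het, with Dll3 null at 0.555 and 1.11 and Notch1 het at 0.574 (log2 -1.62 ± 0.25, limma adjusted p = 0.0403). Akap9, an anchor for kinases at the centrosome and Golgi, fell 2.58-fold, from 2.56 and 3.26 to 1.27 and 0.985. This probe set is among those whose median over the arrays lay below 1. The second Akap9 probe set gave log2 -0.12 with overlapping arrays (limma adjusted p = 0.838). For Rbbp4, a histone-binding subunit of several chromatin complexes, the wild-type arrays were far apart, at 4.05 and 2.15, with Dll3 het at 1.00 and 0.834 (log2 -1.69 ± 0.28). Its other probe sets gave -0.17 and 0.17. In Ago2, Akap9 and Rbbp4, as in Cbl, the difference came from wild type lying above all 7 other arrays.

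Npepps, a cytosolic aminopeptidase, had a tight wild-type pair at 1.90 and 1.92 and ratios of 0.904 and 0.720 in Dll3 het and 0.807 and 0.705 in Dll3 null, while Notch1 het and Notch1 null lay between 1.00 and 1.06 (log2 for Dll3 het -1.25 ± 0.13, limma adjusted p = 0.0265). Its second probe set gave -0.03. Here the 4 Dll3 arrays were below all 5 others and wild type was above all 7 others. Irak1, a kinase of Toll-like and interleukin-1 receptors, had 1.43 and 1.44 in wild type, 0.671 and 0.519 in Dll3 het and 1.31 in Notch1 het (log2 -1.28 ± 0.16 against wild type). Raver1, an RNA-binding partner of the splicing repressor PTB, had 2.04 and 1.68 in wild type, 0.778 and 0.769 in Dll3 het and 1.93 in Notch1 het. In Irak1 and Raver1, Notch1 het lay near wild type, unlike in Cbl or Ago2.

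The 15 lowest also held Sbk1 (log2 -1.26), a protein kinase, Ttc28 (-1.22), Stx6 (-1.20), a fusion protein of the trans-Golgi network, B4galt6 (-1.07), which makes lactosylceramide, the histone chaperone gene Set (-1.04), the proteasome subunit Sem1 (-1.04), the LIM-domain scaffold Limd1 (-1.03) and Git1 (-1.03), a scaffold that turns off ARF proteins. Limma adjusted p-values of these 8 lay between 0.0265 and 0.0473. Both Set probe sets besides the called one went the other way, at 0.15 and 0.02. Uncalled probe sets of B4galt6 gave 0.23, 0.08 and -0.18, and those of Stx6 gave 0.29, -0.12 and -0.14. The uncalled ones of Sbk1, Ttc28, Sem1 and Limd1 lay in the direction of the called one. Other probe sets that fell were 1 of 7 of the cyclin gene Ccnd2, by 1.84-fold (1.84 and 2.04 in wild type, 1.11 and 1.00 in Dll3 het), the only one of the tubulin gene Tubb2b, by 1.86-fold (1.90 and 1.58 against 0.972 and 0.889) and 1 of 3 of the intermediate filament gene Vim, by 1.71-fold (1.40 and 1.34 against 0.846 and 0.751). The other Vim probe sets gave -0.29 and -0.03 on the log2 scale. Twist1, a factor of cranial mesenchyme and sclerotome, fell 1.68-fold, from 1.36 and 1.39 to 0.831 and 0.805 (limma adjusted p = 0.0403). Ebf1 fell 1.91-fold at 1 of 3 probe sets, and its others gave log2 -0.17 and 0.06. Fstl1 fell 1.76-fold at 1 of 2, and its other one went the other way, at 0.28. Hoxb5, with 1 probe set, fell 1.53-fold.

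Other probe sets of the same genes moved much less. The changed probe sets with 1 symbol belonged to 98 genes, 17 of them with a single probe set and 81 with several. Of the 81, 76 had 1 called, and Kansl1 was the only gene with all of its probe sets called. The 148 other probe sets had median log2 differences of 0.11 in genes called higher (61 probe sets) and -0.12 in genes called lower (87 probe sets). Of the 148, 105 lay in the direction of the called one. In most genes a single probe set was called.

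Where wild type or Dll3 het stood apart differed between the changed probe sets. Wild type lay outside all 7 other arrays at 81 of the 110, against 12.5% of all probe sets, and Dll3 het lay outside the other 7 at 42, against 7.71%. The 4 Dll3 arrays lay outside the other 5 at 29 of the 110, against 4.55% of all, and 13 of these 29 were among the 81. Because the difference between Dll3 het and wild type chose these probe sets, the counts are a description. Median log2 differences from wild type at the 42 higher probe sets were 0.84 in Dll3 het, 0.67 in Dll3 null and 0.43 in Notch1 het. At the 68 lower ones they were -0.83, -0.60 and -0.67. All 3 comparisons share the wild-type arrays.

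**Figure D4:**
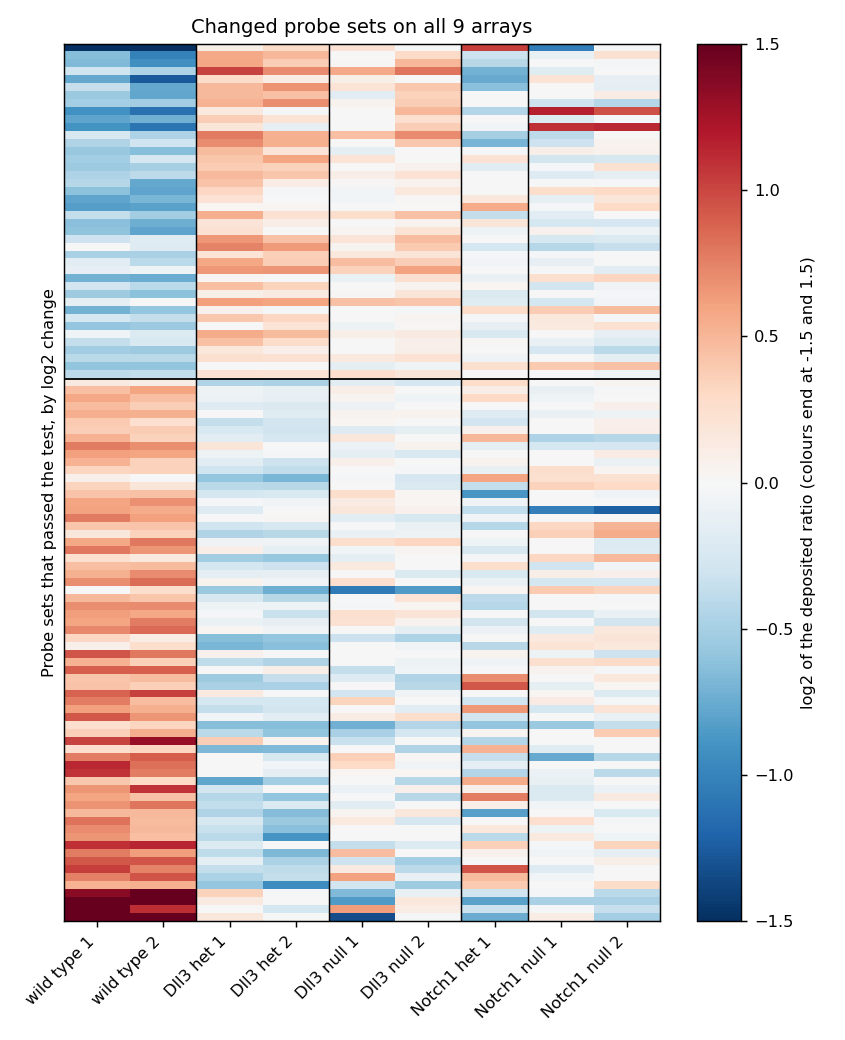
Colours show the log2 deposited ratio of the 110 changed probe sets (rows, ordered by their log2 difference) on each of the 9 arrays (columns). The wild-type columns stand out from the other 7 at many rows, as counted for 81 of the 110.

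Dll3 het was also compared with groups other than wild type. The fit still held all 9 arrays, so the wild-type arrays entered the estimate of the spread but not the differences. Between Dll3 null and Dll3 het, 0 of 22626 probe sets passed in limma (0%), with 1201 at an unadjusted p under 0.05 (5.31%). That count was 17 without Dll3 null replicate 2 and 0 without each of the other 3 arrays. Between Dll3 het and Notch1 het 253 passed (1.12%), but Notch1 het is 1 array, assumed to vary like the others, so the effect of that array and its genotype cannot be told apart, and the groups differ in dap. For reference, 20 probe sets passed between Dll3 null and wild type (0.0884%) and 624 between Notch1 het and wild type (2.76%).

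With the probe sets of each gene averaged, 14 of 12393 genes changed (0.113%), 3 higher and 11 lower, all at a limma adjusted p of 0.0447. The higher were Tfrc (2.01-fold), Kansl1 (1.80-fold) and Dlc1 (1.59-fold). The lower were Cbl (2.89-fold), Raver1 (2.40-fold), Tubb2b (1.86-fold), Limd1 (1.85-fold), Sbk1 (1.78-fold), Abhd8 (1.70-fold), Twist1 (1.68-fold), Sash1 (1.68-fold), Sem1 (1.65-fold), Zfp704 (1.64-fold) and Ppm1m (1.60-fold). The median log2 difference over all genes was -0.01.

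Gene lists were read on these averages, where 1800 of the 12393 genes had an unadjusted limma p under 0.05. Of the 25 Notch targets 0 passed and 6 had an unadjusted p under 0.05, with a median of -0.05. Id4 and Hes5 had the lowest p (log2 -0.55 and -0.44, limma adjusted p = 0.0854 and 0.105), and Efnb2, an ephrin ligand of arteries and posterior somites, gave 0.41. In the list of the segmentation clock and presomitic mesoderm 0 of 40 passed (8 unadjusted) and the median was 0.00. Snai1, a repressor of epithelial genes that cycles in the presomitic mesoderm, came nearest, with ratios of 1.49 and 1.32 in wild type and 0.947 and 0.865 in Dll3 het (log2 -0.63 ± 0.10, adjusted p = 0.0601). Its relative Snai2 gave -0.52 and Msgn1, a master regulator of presomitic mesoderm, gave 0.37.

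Of 14 genes of Notch cleavage and endocytosis 0 passed (5 unadjusted), with a median of 0.09. Besides Adam10, the lowest p-values were those of Nedd4 (0.46), a ubiquitin ligase, and Adam17 (0.26), a protease related to Adam10. Fbxw7, the ubiquitin ligase that ends the life of cleaved Notch, had the lowest p of the 12 nuclear effectors (log2 -0.50 ± 0.09, adjusted p = 0.0696), of which 0 passed (3 unadjusted). The corepressor genes Ctbp2 and Ctbp1 followed at -0.33 and -0.39. All of these values lie short of the threshold.

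Among tissue markers, 1 of 34 genes of somite compartments passed (Twist1, lower), with a list median of -0.07 and 14 at an unadjusted p under 0.05. Tcf15, needed for the epithelial somite, gave -0.50 and Efnb2 again 0.41. Of 42 neural crest genes 1 passed, again Twist1, with a median of -0.10 (10 unadjusted). Snai1 and Nrp1, a receptor for semaphorins, followed at -0.63 and -0.51. Proneural and early neuronal genes gave 0 of 58 and a median of -0.09 (15 unadjusted). Tubb3, a tubulin of neurons, had ratios of 2.08 and 1.58 in wild type and 1.05 and 1.00 in Dll3 het (log2 -0.83 ± 0.21, adjusted p = 0.126), and Ebf1 and Prox1 gave -0.35 and -0.37. Neural progenitor genes gave 0 of 37 and a median of -0.01 (6 unadjusted), led by Hes5, Irx3 (-0.48) and Vim (-0.36).

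Heart muscle genes gave 0 of 44 and a median of -0.02 (3 unadjusted). Tbx2, a repressor of chamber genes in the atrioventricular canal, gave -0.60 (adjusted p = 0.0766), Myh6 0.47 and Smpx -0.47. Endothelial genes gave 0 of 44 and a median of -0.01 (6 unadjusted), with Nrp1 at -0.51, Angpt1 at 0.44 and Plvap at -0.68. Of 27 genes of primitive red cells, Tfrc alone passed and was also the only one at an unadjusted p under 0.05, and the list median was 0.10. Epb42, a protein of the red cell membrane, gave 0.25, and the globin gene Hba-a1 gave 0.16. The embryonic globins Hba-x, Hbb-bh1 and Hbb-y, added as defining markers, gave 0.03, -0.02 and -0.13.

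The lists of tissues that a dissection can carry along varied between replicates. Of 31 genes of visceral endoderm and gut 0 passed (median -0.08, 4 unadjusted), and the mean log2 ratio of the list was -0.17 and 0.24 in wild type and -0.20 and -0.03 in Dll3 het. Its lowest p-values were those of Prox1 (-0.37), Lrp2 (0.42) and Alb (-0.41). Of 20 genes of trophoblast and decidua 0 passed (median -0.02, 4 unadjusted), with means of -0.30 and -0.06 in wild type and -0.11 and -0.16 in Dll3 het. The groups overlapped in both list means. Within the latter list Cdh3 gave 0.41 and Peg10 0.33, Prl4a1, a placental hormone of the prolactin family, had 3.01 in Dll3 het replicate 1 and 1.00 in replicate 2, and Igfbp1, a product of decidua named after its values were seen, had 0.928 and 4.46 in wild type. The part of these tissues in the results was not tested.

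Of 52 genes of the hypoxia response and glycolysis Tfrc alone passed (median 0.05, 7 unadjusted). The mean of that list was -0.11 and -0.16 in wild type and -0.06 and -0.08 in Dll3 het, against 0.64 and 0.86 in Notch1 null. Slc2a3 was next (log2 0.61 ± 0.12, adjusted p = 0.0766) and then Lox, which crosslinks collagen, at 0.26. In chromatin regulators 1 of 47 was higher, Kansl1 (13 unadjusted), with Pbrm1 and Arid2, subunits of a SWI/SNF remodelling complex, at -0.66 and -0.73 (adjusted p = 0.0510 and 0.0854). Among ubiquitin ligases and receptor turnover 1 of 27 was lower, Cbl (7 unadjusted), followed by Fbxw7 and Nedd4.

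Retinoic acid genes had the lowest median of the lists, -0.18, with 0 of 18 passing (5 unadjusted). The receptor gene Rarg gave -0.44, Crabp1, a binding protein, gave -0.32, and Aldh1a2, the enzyme that makes retinoic acid in the trunk, had ratios of 1.58 and 1.28 in wild type and 1.07 and 1.00 in Dll3 het (adjusted p = 0.148). Of 64 genes of oxidative phosphorylation 0 passed (8 unadjusted, median -0.08), with the complex I subunits Ndufb10 and Ndufa8 at -0.56 and 0.42 and the complex II subunit Sdhc at -0.28. Of 43 cytosolic ribosomal genes 0 passed (1 unadjusted, median -0.06), with Rplp2, Rpl27 and Rpl38 at -0.34, -0.23 and -0.18. The lists not yet described (Notch modifiers, Hedgehog, Hox, FGF, Wnt, BMP and TGF beta, cell cycle, p53, stress, immediate early, translation and silencing, splicing and sex-linked genes) had 0 genes past the threshold, with medians from -0.08 to 0.06 and 1 to 13 genes each at an unadjusted p under 0.05.

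**Figure D5:**
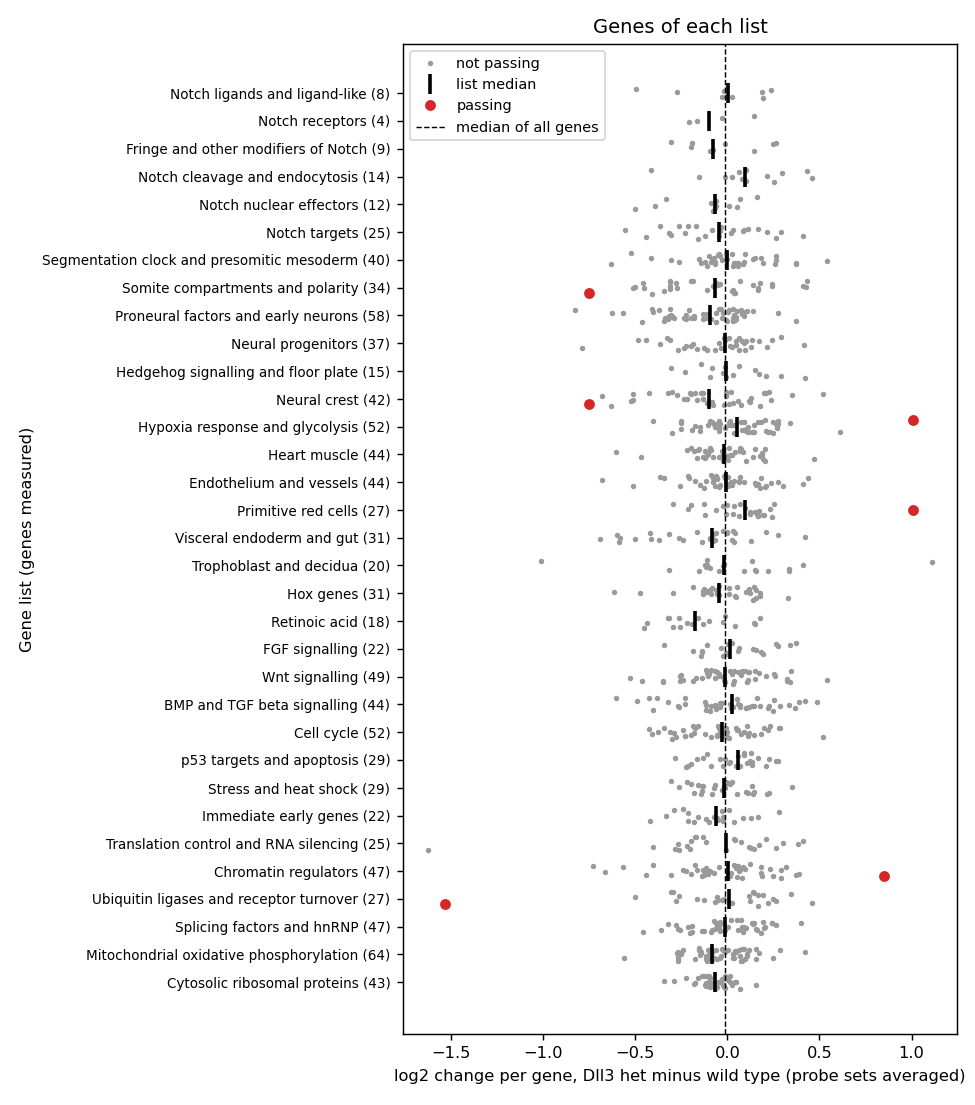
Each point is a gene of the named list, at its log2 difference between Dll3 het and wild type averaged over probe sets; black bars are list medians, the dashed line is the median of all genes (-0.01), and the number measured stands in brackets. Genes past the threshold (red) are Tfrc, Kansl1, Cbl and Twist1, and the list medians lie between -0.18 and 0.10.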

How the data were processed

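RNA of whole embryos had been hybridised to Affymetrix arrays, 9 in all. The values deposited by the authors are linear ratios, made with RMA per the submitters' processing notes, with no version given; no source used here states the divisor. The median over the arrays was exactly 1 at 19847 of 22690 probe sets (87.5%) and clearly below 1 at 2824, so absolute levels are lost and no filter on level was possible. Ratios were converted to log2. The tests covered 22626 probe sets, leaving out 64 controls; 20380 came with 1 gene symbol (12393 genes), 691 with several and 1555 with none; the latter kinds were not named. RefSeq gene identifiers changed 0 symbols.

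Tests used limma 3.58.1 (R 4.3.3), with lmFit and eBayes (1 mean per genotype over 9 arrays; 4 residual and 5.42 prior degrees of freedom), with Benjamini-Hochberg adjustment over all probe sets in each of 5 comparisons and standard errors from the same fit. The number of arrays limits the precision. The procedure was tested on simulated data. Of 1133 genes in 34 lists, 980 were measured; lists were described by counts and medians. The members and lists were chosen with earlier results of these data known. Named were the 15 highest and 15 lowest changed probe sets with arrays that do not overlap, Notch pathway and segmentation genes, the 3 genes of lowest p in each list described, and a few more marked in the text. The sources used here name no genome build for the arrays; promoters are from RefSeq GRCm38.p6. Alternatives were other scalings, moderation and weights, fewer arrays, a replicate block, embryo sex, averaged probe sets, a pseudocount of 0.1, other thresholds and leaving out each array.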

Additional observations from a re-analysis of the deposited data

How the results depend on the processing

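Against 110 changed probe sets (42 higher, 68 lower), the count was 68 (29 and 39) after quantile normalization, 4 (1 and 3) with only the arrays of the groups compared, 1 (1 and 0) with only the Dll3 and wild-type arrays, 0 (0 and 0) with embryo sex as a covariate, 14 (3 and 11) for averaged genes, 569 (247 and 322) at an adjusted p under 0.1 and 0 (0 and 0) under 0.01. Added after the data were seen, it was 1 (1 and 0) without both Notch1 null arrays and 197 (84 and 113) without both Dll3 null arrays. The former must equal the count with only the Dll3 and wild-type arrays, because the single Notch1 het array adds nothing to the spread. Leaving out each array of both groups, with the lone array assumed to vary like the others, gave 0 to 1 (0 to 0 higher, 0 to 1 lower), and 0 to 17 between Dll3 null and Dll3 het. With replicate number as a block it was 40 (16 and 24), of which 38 were among the 110; same-numbered deviations of wild type and Dll3 het correlated at 0.16, and the labels do not say that a number marks a shared litter. Centring, robust moderation, array weights, the pseudocount, a 1.5-fold minimum and leaving out floor-divided probe sets gave 86 to 120. Leaving out the Notch1 het array had to give 110 again, since a lone array adds nothing to the spread, and is no separate check. The cause of these differences was not tested, beyond fewer arrays or genes where the setting removes them. All 110 kept their direction wherever measured, and 0 passed in every one of 17 alternatives. At the 110 the arrays of both groups did not overlap. Leaving out 1 array, or changing only the moderation, could therefore not reverse a direction.

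Uncalled pathway probe sets near 0 changed sign. With the sex covariate Notch3 became 0.016 and Dll3 0.014. Leaving out each array of both groups in turn gave ranges across 0: Dll3 -0.095 to 0.033, Jag1 -0.15 to 0.12 and -0.083 to 0.22, Notch1 -0.16 to 0.055, Notch3 -0.086 to 0.064 and -0.21 to 0.11, Notch4 -0.42 to 0.10 and -0.36 to 0.013, Hes1 -0.29 to 0.046, Hes7 -0.058 to 0.22, Heyl -0.035 to 0.38, Nrarp -0.086 to 0.24 and Tbx6 -0.12 to 0.18. Signal over background is unknown from ratios.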
